A study of Bos taurus with 170 samples.

Results

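Transcripts of oxidative phosphorylation genes were examined in single blastomeres of 14 bovine embryos, 6 collected on Day 2 and 8 on Day 3 after in vitro fertilisation. The genes were chosen by symbol: every entry of the UMI table that starts with NDUF, SDH followed by A to D, UQCR, COX followed by a digit (COX10 to COX20 left out) or ATP5, and CYC1 and CYCS, which gave 83 of the 10772 genes of the table. The choice by name used no measured value. Embryos were produced from slaughterhouse oocytes with frozen-thawed semen, were picked by the timing of their first cleavages, received no treatment named in the labels, and were taken apart into single cells for SCRB-Seq. In this plate-based method each captured mRNA is primed at its poly(A) tail and tagged with a random sequence, the unique molecular identifier (UMI), and copies made by PCR count as 1 molecule.

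Oxidative phosphorylation takes place at the inner mitochondrial membrane. Complexes I and II pass electrons to ubiquinone, complex III passes them on to cytochrome c, complex IV transfers them to oxygen, and the proton gradient built up by complexes I, III and IV drives ATP synthesis by complex V. Most subunits are encoded in the nucleus and a few in the mitochondrial genome, and the early embryo inherits its mitochondria and a large store of maternal mRNA from the oocyte. Between Day 2 and Day 3 bovine embryos pass through major embryonic genome activation, when maternal mRNA is degraded and the embryo's own transcription takes over. All 83 genes described here are nuclear, and mitochondrially encoded subunits were not analysed here.

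Cells with 2000 or more UMI were kept, 43 of 47 from Day 2 and 118 of 123 from Day 3 embryos, and their counts were summed per embryo, because cells of 1 embryo are not independent. A summed embryo held 438899 to 920192 gene UMI on Day 2 and 294912 to 600185 on Day 3, while the median cell held 76074 UMI on Day 2 and 24696 on Day 3. The unit of level is CPM, a gene's UMI per 1000000 gene UMI in its embryo. Since 1 mRNA gives 1 tag at its 3′ end whatever its length, CPM values of different genes can be set side by side without a length correction, but a level is a share of the counted mRNA and not an amount per cell. The embryos do not form even batches. Most cell barcodes in the labels recur, 69 of the 92 being carried by 2 cells, and never within the embryos of Day 2 with Day3-E1 and Day3-E2, or within those from Day3-E4 to Day3-E8. These are called the first and the second barcode set here, a division read from the barcodes and not named by the labels, and Day3-E3 was left unsettled. The number of gene UMI per UMI of the ERCC spike-ins, which were added in equal amount to each well, followed this division, with 64.8 to 71.7 in the Day 2 embryos and Day3-E1 to Day3-E3 against 32.6 to 40.2 in Day3-E4 to Day3-E8. The sample titles also end in p1, p2 or p3, whose meaning is not given in the sources used here. By the collection times of the study, the Day 3 embryos of p1 were taken first, those of p3 later and those of p2 last. Transcripts typical of oocytes and early embryos were present, with UMI for all 11 such markers in the table and DPPA3 as the most abundant at a mean of 3062 CPM over the embryos.

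The 83 genes together took 8081 ± 561 CPM in Day 2 embryos (SD, n = 6) and 7503 ± 911 CPM in Day 3 embryos (SD, n = 8). The Day 2 sums ran from 7452 to 8765 CPM and the Day 3 sums from 5891 in Day3-E6 to 8718 in Day3-E5, so the days overlapped. The most abundant gene was ATP5J, which encodes coupling factor 6 in the stalk of ATP synthase, with a mean of 623 CPM over the 14 embryos. Next to it on both days stood COX7A2L, a protein that ties complexes III and IV into supercomplexes, with 535 ± 81.7 CPM on Day 2 and 444 ± 121 on Day 3. Of the 83 genes, 24 had a mean of 100 CPM or more, 66 had a UMI in all 14 embryos, and 6 of the 10 most abundant on Day 2 were also among the 10 most abundant on Day 3.

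By complex, the summed levels differed little between the days for complexes I, III and V, were lower on Day 3 for complex II and its assembly factors, and spread widely for complex IV. The 31 complex I subunits summed to 2748 ± 143 CPM on Day 2 and 2466 ± 269 on Day 3. The 9 complex III subunits summed to 880.5 ± 123 and 847 ± 115 CPM. The 15 complex V subunits summed to 2599 ± 203 and 2313 ± 350 CPM. The ranges of the days overlapped for each of these 3 complexes, and the sign of the small difference depended on scaling: the log2 ratio of the Day 3 and Day 2 means was -0.16 for complex I, -0.06 for complex III and -0.17 for complex V in CPM, but 0.14, 0.24 and 0.10 after TMM scaling, which corrects for a few abundant transcripts taking a larger share. These sums are descriptions and were not tested. The table had no entry under symbols such as SDHA, SDHD, NDUFV2, COX6C or COX7C. Sums and rankings by complex therefore cover only the subunits that the table holds.

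**Figure D1:**
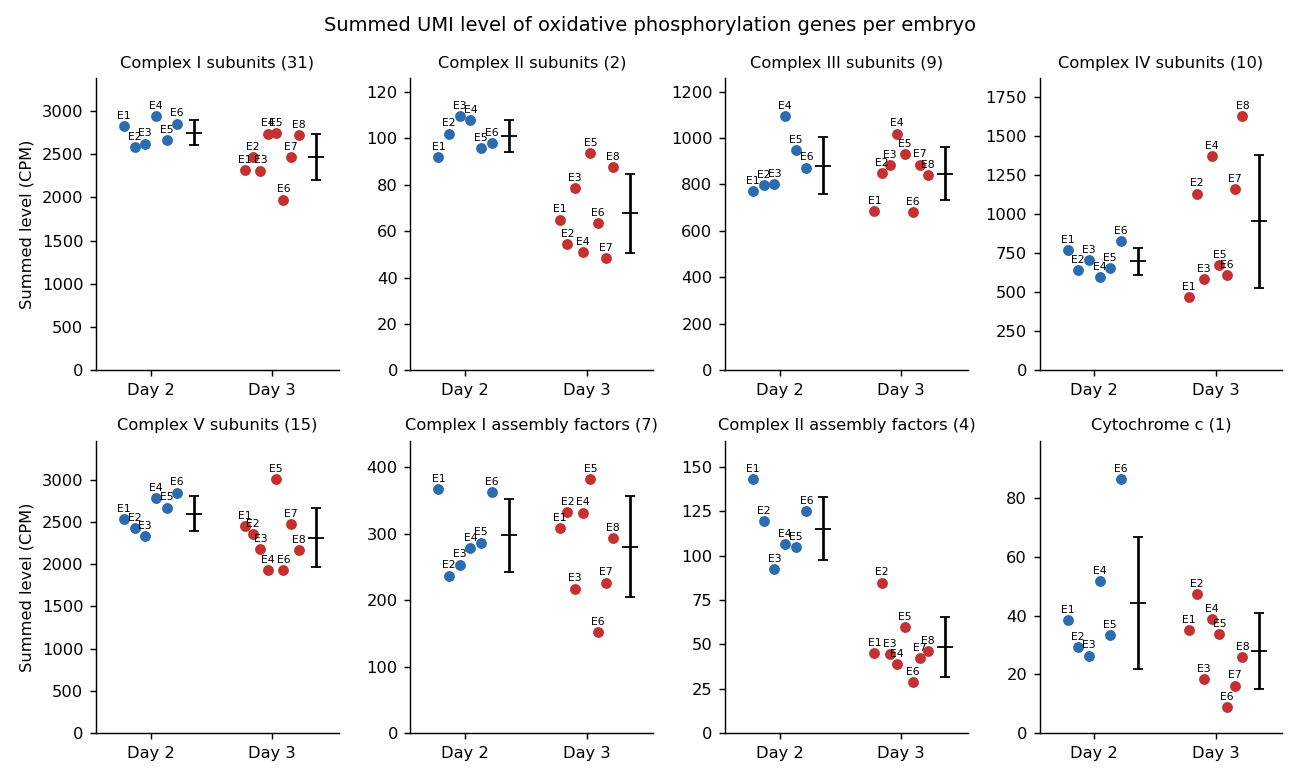
Summed level in CPM of the subunits of each complex, of the assembly factors and of cytochrome c (y axes, starting at 0) in each Day 2 (blue) and Day 3 (red) embryo, labelled by embryo number, with the mean and SD of each day in black and the number of genes in parentheses. Day 3 embryos lie below all Day 2 embryos only for the complex II assembly factors, and spread from 470 to 1627 CPM for complex IV.

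Complex II, succinate dehydrogenase, was represented by SDHB, its iron-sulphur subunit, and SDHC, one of its membrane anchors, which together had 101 ± 6.94 CPM on Day 2 and 67.7 ± 17.1 CPM on Day 3. The 4 complex II assembly factors had a sum of 92.3 to 143 CPM in Day 2 embryos and of 28.5 to 84.8 CPM in Day 3 embryos, and the days did not overlap. The 10 complex IV subunits had a sum of 598 to 827 CPM in Day 2 embryos. In Day 3 embryos it ran from 470 CPM in Day3-E1 to 1627 CPM in Day3-E8, with Day3-E2, Day3-E4, Day3-E7 and Day3-E8 above every Day 2 embryo and Day3-E1 and Day3-E3 below. CYCS, the mobile carrier cytochrome c, had 44.3 ± 22.6 CPM on Day 2 and 28.0 ± 13.03 CPM on Day 3, and its log2 fold change of -0.38 ± 0.37 (SE) was not called (edgeR adjusted p = 0.441). Complex II and its assembly factors kept the lower Day 3 mean under every scaling tried, whereas for complex IV the log2 ratio of 0.45 was -0.15 per ERCC UMI and -0.079 within p3, the embryos whose titles end so.

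Behind these sums, single genes moved in both directions. edgeR's quasi-likelihood test was run over all 5274 genes with enough UMI, and a gene was called at a Benjamini-Hochberg adjusted p under 0.05. Of the 83 genes, 61 were tested and 22 were removed by the filter on low counts (1 to 142 UMI over all embryos). Among the 61, 12 were higher on Day 3, 9 were lower and 40 were not called. The balance of directions depended on the scaling: without TMM 9 were higher and 13 lower (890 and 981 of all genes, in place of 1117 and 595), and with ERCC UMI as library size 3 were higher and 26 lower (456 and 1907 of all genes). Gene UMI per ERCC UMI was lower than on Day 2 in Day3-E4 to Day3-E8 but not in Day3-E1 to Day3-E3. With TMM, 34.4% of the 61 were called, close to the 32.46% of all tested genes (21.18% higher and 11.28% lower), so the number of calls does not set these genes apart. In 6 of the 61 every Day 3 embryo lay below every Day 2 embryo and in 1 every one lay above, against 5.38% and 3.98% of all tested genes. The median log2 fold change was -0.08 for the 61 genes and -0.04 for all genes. By complex, 5 of the 25 tested complex I subunits were higher and 6 lower, 2 of 6 complex III subunits higher and 1 lower, 2 of 7 complex IV subunits higher and 0 lower, and 3 of 15 complex V subunits higher and 1 lower. Both tested complex I assembly factors and both complex II subunits were without a call, and the only complex II assembly factor tested was lower. Without the filter, 2 of the 22 were called. NDUFAF7, a complex I assembly factor named here after its values were seen, had 23.1 ± 6.97 CPM on Day 2 and 4.81 ± 3.901 on Day 3 without overlap, and its log2 fold change was -1.98 ± 0.45 (SE, edgeR adjusted p = 0.00265). COX7B2 was called higher (edgeR adjusted p = 0.0303) from only 2 UMI on Day 2 and 16 on Day 3.

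**Figure D2:**
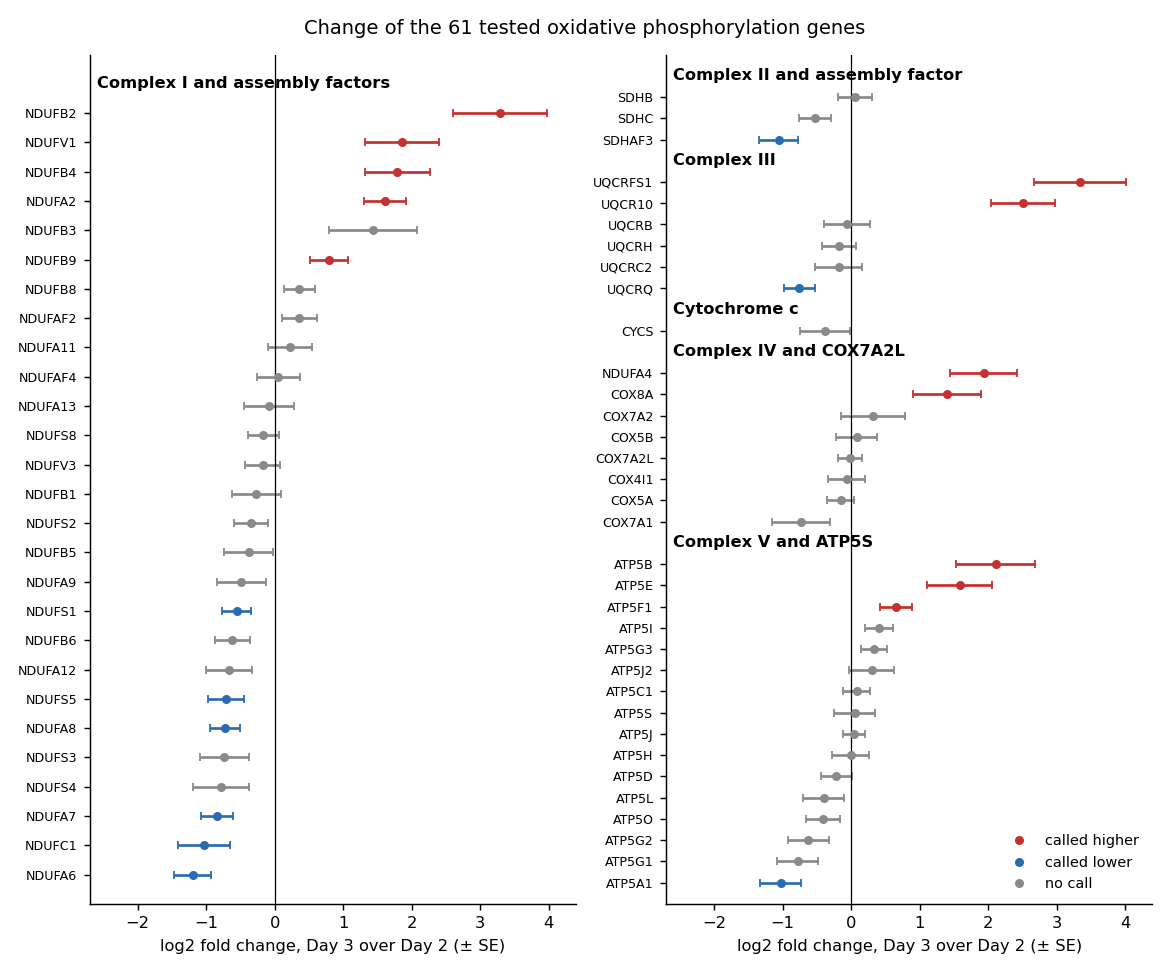
Log2 fold change, Day 3 over Day 2, with its standard error (x axes) for the 61 tested genes (y axes), grouped by complex, red for genes called higher, blue for genes called lower and grey for no call. Complexes I, III and V hold calls in both directions, from 3.34 for UQCRFS1 to -1.20 for NDUFA6.

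In complex III, UQCRFS1, the Rieske iron-sulphur protein that takes electrons from ubiquinol, had the highest log2 fold change of the 61 tested genes. Its lowest, median and highest levels were 8.55, 14.44 and 15.36 CPM in Day 2 embryos and 8.33, 74.2 and 247 CPM in Day 3 embryos. The other 7 Day 3 embryos were above the Day 2 range, but Day3-E1 lay below it. The log2 fold change was 3.34 ± 0.67 (SE, edgeR adjusted p = 0.00155). UQCR10, a small accessory subunit, had 22.8, 29.4 and 40.6 CPM on Day 2 and 43.3, 96.8 and 338 CPM on Day 3. It was the only tested gene of the 61 for which every Day 3 embryo exceeded every Day 2 embryo, and its log2 fold change was 2.51 ± 0.47 (SE, edgeR adjusted p = 0.000892). UQCRQ, another small accessory subunit, had 107, 141 and 156 CPM on Day 2 and 29.1, 71.7 and 105 CPM on Day 3. All Day 3 embryos lay below all Day 2 embryos, and the log2 fold change was -0.76 ± 0.23 (SE, edgeR adjusted p = 0.0189). UQCRH, the hinge protein and the most abundant gene of the complex, had 510 ± 98.6 CPM on Day 2 and 390.2 ± 169 on Day 3 and was not called (log2 fold change -0.18, adjusted p = 0.594).

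In complex I, the rises were those of NDUFB2, NDUFV1, NDUFB4, NDUFA2 and NDUFB9, the last with a log2 fold change of 0.79 that turned to -0.12 with ERCC UMI as library size. NDUFB2, an accessory subunit of the membrane arm, had 15.9, 27.0 and 30.4 CPM in the lowest, median and highest Day 2 embryo and 13.33, 159 and 442 CPM in the Day 3 embryos. Day3-E1 was again below the Day 2 range and the other 7 Day 3 embryos above it, with a log2 fold change of 3.28 ± 0.69 (SE, edgeR adjusted p = 0.00204). NDUFV1, a core subunit that binds NADH and FMN, had 12.2, 19.4 and 31.9 CPM on Day 2 and 10.47, 49.0 and 121 CPM on Day 3. Here 6 Day 3 embryos were above the Day 2 range, and the log2 fold change was 1.86 ± 0.54 (SE, edgeR adjusted p = 0.0159). NDUFB4 and NDUFA2, accessory subunits, had log2 fold changes of 1.79 and 1.62 (adjusted p = 0.00928 and 0.00103), and NDUFA2 had 70.4 to 95.6 CPM in Day 2 embryos and 149 to 341 CPM in the Day 3 embryos other than Day3-E1, which had 76.6.

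Among the 6 complex I subunits that fell, NDUFA6, an accessory LYR-motif protein, fell most. Its lowest, median and highest levels were 75.2, 122 and 161 CPM on Day 2 and 21.9, 45.4 and 70.2 CPM on Day 3. The days did not overlap, and the log2 fold change was -1.20 ± 0.27 (SE, edgeR adjusted p = 0.00339). NDUFA7, NDUFA8 and NDUFS1 were also lower in every Day 3 embryo than in any Day 2 embryo, with log2 fold changes of -0.84, -0.72 and -0.55 (adjusted p = 0.0126, 0.0206 and 0.0493). NDUFS1 is the largest core subunit and carries iron-sulphur clusters of the electron path. NDUFC1 and NDUFS5, accessory subunits, fell with log2 fold changes of -1.03 and -0.71 (edgeR adjusted p = 0.0473 and 0.0444), and in both the range of Day 3 reached into that of Day 2. NDUFS5 was the most abundant complex I gene on Day 2, with 353 ± 26.2 CPM, and had 189 ± 101 on Day 3, when NDUFB9 was highest with 286 CPM. The complex II assembly factor SDHAF3, which helps to mature the iron-sulphur subunit, had 63.3, 83.1 and 98.3 CPM on Day 2 and 13.15, 32.6 and 57.6 CPM on Day 3. The days did not overlap, and it fell with a log2 fold change of -1.06 ± 0.28 (SE, edgeR adjusted p = 0.00976).

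In complex IV, NDUFA4 and COX8A rose. With ERCC UMI as library size their log2 fold changes were 0.87 and 0.33 and neither was called, and COX8A was also not called without TMM (1.01). NDUFA4, first assigned to complex I and now placed in complex IV, had 88.4, 101 and 124 CPM on Day 2 and 59.98, 288 and 667 CPM on Day 3. Of the Day 3 embryos, 6 were above the Day 2 range and Day3-E1 below it, and the log2 fold change was 1.93 ± 0.49 (SE, edgeR adjusted p = 0.007). COX8A, a small accessory subunit, had 82.2, 136 and 170.2 CPM on Day 2 and 46.7, 234 and 494 CPM on Day 3, with 4 Day 3 embryos above the Day 2 range, and its log2 fold change was 1.403 ± 0.49 (SE, edgeR adjusted p = 0.0377). On Day 3 these 2 genes had the highest mean levels among the complex IV subunits that the table holds, 296 and 268 CPM. On Day 2 COX5B and COX5A stood above them with 141 and 137 CPM against 103 and 133.

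Several subunits of complex IV and the c-ring of complex V exist as paralogous isoforms. Apart from NDUFA4 and COX8A, none of the forms tested passed the test with all 14 embryos, TMM scaling, the filter on low counts and no further term. COX4I1, the widely expressed form of subunit 4, had 70.2 ± 9.03 CPM on Day 2 and 54.8 ± 17.8 on Day 3. Its counterpart COX4I2 was seen as 1 UMI, in Day3-E8, and the 0 UMI of Day 2 allow a level of up to 0.746 CPM over the day (3 counts of all gene UMI, counting error only). COX7A1, the form known from heart and skeletal muscle, had 31.1 ± 10.17 CPM on Day 2 and 15.51 ± 13.41 on Day 3 (log2 fold change -0.73 ± 0.42, SE, edgeR adjusted p = 0.188). The widely expressed COX7A2 had 63.0 to 94.0 CPM in Day 2 embryos and 26.2 to 142 CPM in Day 3 embryos, with 3 Day 3 embryos above and 5 below the Day 2 range. COX6B2 and COX7B2, the forms known from testis, were removed by the filter on low counts, with 6.97 ± 4.43 and 0.537 ± 0.896 CPM on Day 2 and 15.23 ± 7.501 and 5.73 ± 8.19 on Day 3, and NDUFA4L2 was seen as 1 UMI, in Day2-E4. Of the 3 genes for subunit c, ATP5G3 gave most transcripts, with 397 ± 61.7 CPM on Day 2 and 421 ± 123 on Day 3. ATP5G1 had 61.3 ± 9.17 and 30.7 ± 18.2 CPM (log2 fold change -0.78 ± 0.30, SE, edgeR adjusted p = 0.0556), and ATP5G2 had 95.1 ± 21.2 and 52.9 ± 32.4 CPM (adjusted p = 0.114). How reads that match several paralogues or processed pseudogenes were treated is not given in the sources used here, so the division of counts among these forms is uncertain.

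In complex V, the catalytic F1 head is built from alternating alpha and beta subunits, encoded by ATP5A1 and ATP5B, which are present in the enzyme in equal number. Their transcripts moved in opposite directions. ATP5A1 had a lowest, median and highest level of 329.8, 349.8 and 468 CPM in Day 2 embryos and 28.3, 146 and 348 CPM in Day 3 embryos. Of the Day 3 embryos 7 were below the Day 2 range and Day3-E1 within it, and the log2 fold change was -1.03 ± 0.30 (SE, edgeR adjusted p = 0.0153). ATP5B had 33.7, 43.6 and 63.8 CPM on Day 2 and 30.0, 97.0 and 402 CPM on Day 3. Here 4 Day 3 embryos were above the Day 2 range, 3 within it and Day3-E1 below, and the log2 fold change was 2.109 ± 0.58 (SE, edgeR adjusted p = 0.0111). With the title suffix as a term the log2 fold change of ATP5B was 1.698 ± 0.67 and no longer called (edgeR adjusted p = 0.0650), while ATP5A1 kept its call. ATP5E, the epsilon subunit of the F1 stalk, rose with a log2 fold change of 1.58 (adjusted p = 0.0189) from 17.7 ± 5.03 to 42.4 ± 27.3 CPM. ATP5F1, subunit b of the outer stalk, rose from 232 ± 43.1 to 303 ± 104 CPM (log2 fold change 0.66, edgeR adjusted p = 0.041), a direction that turned to -0.24 with ERCC UMI as library size, and ATP5J was not called (log2 fold change 0.04 ± 0.16, SE, edgeR adjusted p = 0.874).

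The opposite moves can be read within each embryo, where no scaling between libraries enters. ATP5A1 had 5.46 to 10.43 times as many UMI as ATP5B in the Day 2 embryos. On Day 3, Day3-E1 had a ratio of 11.61. It was 4.43 for Day3-E3 and 3.095 for Day3-E5, then 2.107 for Day3-E6. Below 1 came Day3-E2 with 0.787, Day3-E7 with 0.780, Day3-E4 with 0.425 and Day3-E8 with 0.0705. All Day 3 embryos but Day3-E1 lay below the Day 2 range, and in 4 of them ATP5B was the more abundant. The ratio of UQCRQ to UQCR10 was 3.42 to 6.21 in Day 2 embryos and 0.169 to 2.115 in Day 3 embryos, without overlap. The ratio of NDUFV1 to NDUFS1, core subunits of complex I, was 0.125 to 0.368 on Day 2 and 0.160 to 4.27 on Day 3, with overlap. These pairs were picked with the fold changes in view and were not tested.

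**Figure D3:**
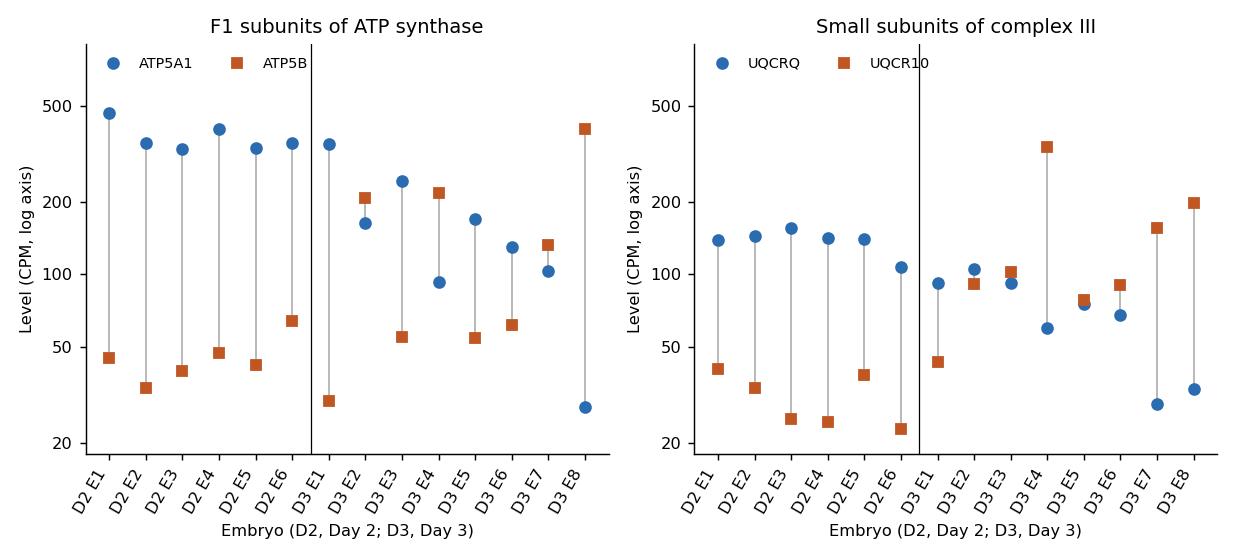
Levels in CPM (y axes, logarithmic) of ATP5A1 and ATP5B, left, and of UQCRQ and UQCR10, right, in each of the 14 embryos (x axes), with a grey line joining the genes of a pair. In every Day 2 embryo ATP5A1 and UQCRQ lie above their partners, while the order is reversed for both pairs in Day3-E4, Day3-E7 and Day3-E8 and kept for both in Day3-E1.

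Single blastomeres with 10 or more UMI of ATP5A1 and ATP5B together showed this division only in part. In all 35 such Day 2 cells, ATP5A1 gave 80.0% to 97.1% of the UMI of ATP5A1 and ATP5B. Of the 44 such Day 3 cells, 15 had less than 50% from ATP5A1. By embryo, the 13 cells of Day3-E1 had 77.8% to 100.0%, the 5 cells of Day3-E3 had 83.3% to 93.3%, and the 9 cells of Day3-E8 had 0% to 18.2%. The 3 cells of Day3-E4 had 18.5% to 36.7%, the 4 cells of Day3-E5 81.8% to 90.9% and the 2 cells of Day3-E6 81.8% and 82.1%. In Day3-E2 the 6 cells lay between 25.0% and 61.5%, and in Day3-E7 the 2 cells were far apart, at 11.11% and 80.0%. The counted cells of Day3-E3, Day3-E5 and Day3-E6 thus lay within the range of the Day 2 cells, although the ratios of these embryos lay below the Day 2 range. A cell with 10 UMI gives only a coarse share. The remaining 74 Day 3 cells had too few UMI of the pair, so the counted cells need not stand for their whole embryo.

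The sums over the called genes spread more widely on Day 3 than on Day 2, which was not so for every group, since the SD was smaller on Day 3 for complex III, cytochrome c and the complex II assembly factors. The 12 genes that rose summed to 1009 ± 37.1 CPM on Day 2 and 2286 ± 1192 CPM on Day 3, from 806 in Day3-E1 to 4055 in Day3-E8. The 9 genes that fell summed to 1663 ± 103 CPM on Day 2 and 795 ± 362 CPM on Day 3, from 311 in Day3-E8 to 1266 in Day3-E1. For 9 of the 12 risen genes, Day3-E4 and Day3-E8 held the highest levels among the Day 3 embryos, and for 9 of the 12 Day3-E1 held the lowest. Both lowest levels lay in Day3-E4 and Day3-E8 for only 3 of the 9 fallen genes. Day3-E1 was within the Day 2 range for 9 of the 21 called genes, 6 risen and 3 fallen. The spread of sums over called genes is a description, since the calls chose the genes.

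**Figure D4:**
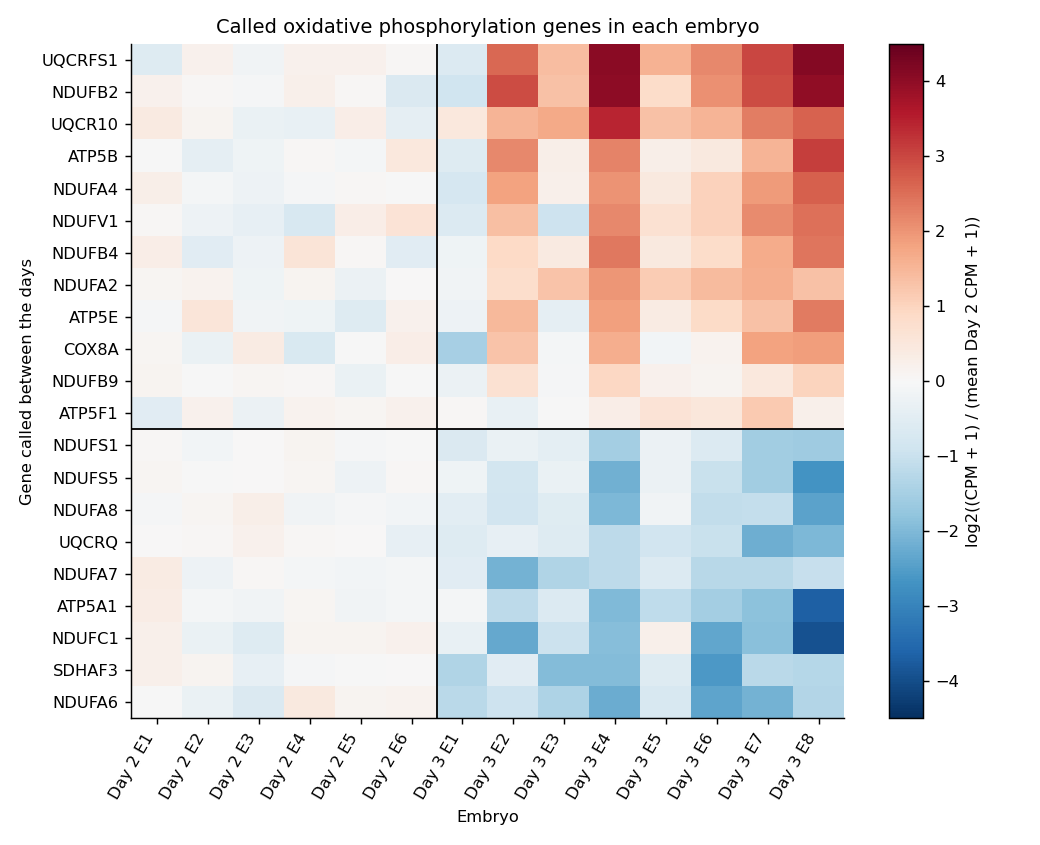
Level of the 21 called genes (y axis, sorted by log2 fold change) in each of the 14 embryos (x axis), coloured by log2 of (CPM + 1) over (mean Day 2 CPM + 1), red above and blue below the Day 2 mean. Day3-E4 and Day3-E8 hold the highest levels of the Day 3 embryos for 9 of the 12 risen genes and the lowest for 3 of the 9 fallen genes. Day3-E1 is within the Day 2 range for 9 of the 21 genes.

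Barcode set and day overlap, and the part of the barcode set in these changes cannot be told apart from that of the day for Day3-E4 to Day3-E8. With the first barcode set alone, which leaves Day3-E1 and Day3-E2 on Day 3, edgeR's test called 0 of 69 tested oxidative phosphorylation genes. An unadjusted p under 0.05 was found for 12 of these 69 and for 1269 of all 6193 tested genes. Of the 21 called genes, the 20 that could be tested in this fit all kept their direction, while 351 genes of all 6193 were called. The 21 were chosen with these embryos included, so a kept direction, here or within p2 or p3, is no separate support. The 12 risen genes summed to 806 CPM in Day3-E1, below the 962 to 1059 CPM of the Day 2 embryos, and to 2228 CPM in Day3-E2. As a sum, their rise in this fit therefore rests on Day3-E2 alone. Within p2, with 2 embryos of each day, all 21 genes kept their direction and 15 were called, and within p3, with 4 Day 2 and 2 Day 3 embryos, all 21 kept it and 9 were called. Of all tested genes, 28.9% were called within p2 and 24.7% within p3, against 30% and 18.8% of the tested oxidative phosphorylation genes. Within either suffix the Day 2 embryos are of the first barcode set and the Day 3 embryos of the second, so these fits do not separate set from day. With the title suffix as a term in the fit of all 14 embryos, 15 of the 21 genes kept their call, and ATP5B, COX8A, NDUFA7, NDUFB9, NDUFC1 and NDUFS1 lost it at adjusted p from 0.0648 to 0.151. The embryos of p1 are all from Day 3 (Day3-E1 to Day3-E4), so in that fit the difference between the days rests on p2 and p3. On Day 3 the suffix also goes with the hour of collection, so that term and the fits within p2 and p3 carry it too.

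In single cells the genes took 0.447% to 1.21% of the gene UMI, with a median of 0.766% over 161 cells. Among cells with 10000 or more UMI the median was 0.813% for 37 Day 2 cells and 0.749% for 103 Day 3 cells. Within an embryo the cells varied more than counting alone gives: the squared deviations from the embryo's share, averaged per degree of freedom, were 11.9 to 23.7 times the counting variance in Day 2 embryos and 2.72 to 10.05 times in Day 3 embryos, whose cells held fewer UMI. The comparison covers counting error only, so no conclusion on differences between blastomeres is drawn from it. The cells with 10000 or more UMI, 37 from Day 2 and 103 from Day 3, were thinned to 10000 UMI, and the other cells were left out. NDUFA6 was then detected with a UMI in 76.5% ± 14.38 of these blastomeres of a Day 2 embryo (SD, n = 6) and 29.8% ± 8.75 of those of a Day 3 embryo (SD, n = 8). The difference was -46.7 percentage points (two-sided exact permutation test over embryos, p = 0.000333, adjusted p = 0.00866 over 26 genes). Most of the 26 genes, NDUFA6 among them, were picked for their edgeR calls in the same embryos. The p-value is therefore no separate evidence of a difference. Thinned to 5000 UMI, the difference was -23.4 points and no longer called (exact permutation p = 0.0276, adjusted p = 0.0797). Without thinning the shares were 83.5% and 57.1%. For the other 25 genes of this family the adjusted p was 0.0563 or more in the same exact permutation test, the lowest being that of ATP5A1 with 96.7% ± 8.16 on Day 2 and 67.5% ± 21.5 on Day 3.

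**Figure D5:**
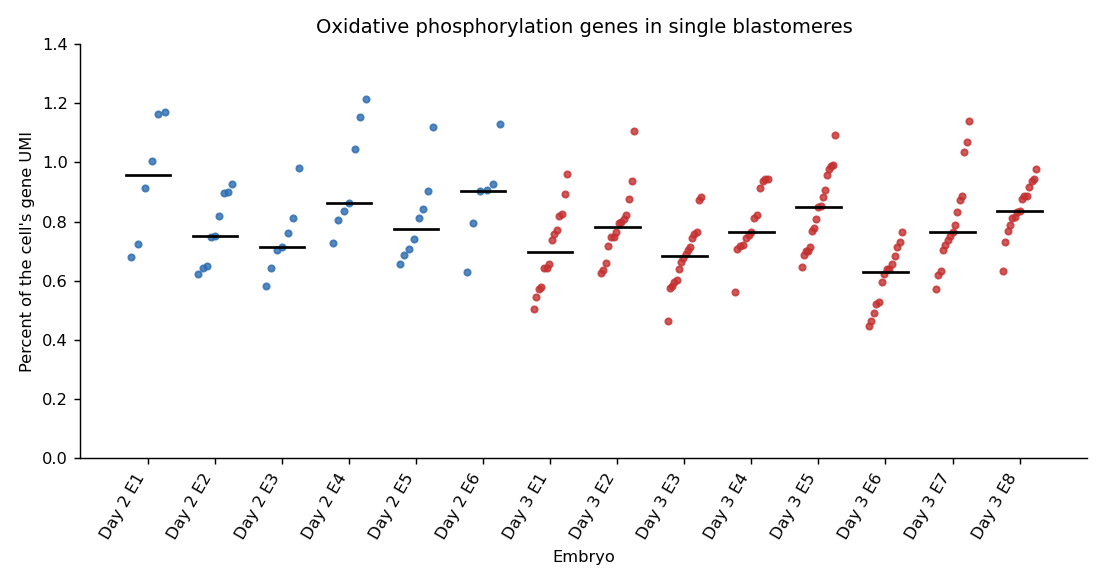
Percent of a cell's gene UMI that fell on the 83 oxidative phosphorylation genes (y axis, from 0) in each blastomere of each embryo (x axis), with the embryo's median as a black line, blue for Day 2 and red for Day 3. The cells of every embryo overlap with those of the others, and those of Day3-E6 have the lowest median, 0.631%.

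Other genes of mitochondrial energy metabolism, taken from lists set by name, were examined in the same fit. Of 15 tested regulators of mitochondrial biogenesis and mitochondrial DNA expression, 6 were higher and 1 lower on Day 3, which is 40.0% and 6.67% against 21.18% and 11.28% of all tested genes. TFAM, which packages mitochondrial DNA and starts its transcription, had 3.96, 8.08 and 12.8 CPM in the lowest, median and highest Day 2 embryo and 18.3, 100.0 and 185 CPM in the Day 3 embryos. Every Day 3 embryo was above every Day 2 embryo, and the log2 fold change was 4.10 ± 0.60 (SE, edgeR adjusted p = 0.000178). The fallen gene was GABPB1, a subunit of the factor GABP that binds promoters of many respiratory genes, with 173 ± 18.5 CPM on Day 2 and 68.5 ± 36.3 on Day 3 and no overlap (log2 fold change -1.11, adjusted p = 0.00424). Its partner GABPA, named here after its values were seen, rose from 11.12 ± 3.97 to 146 ± 123 CPM (log2 fold change 4.09, edgeR adjusted p = 0.000726), and so did the transcription factor NRF1, also named afterwards, from 20.4 ± 5.01 to 71.7 ± 34.7 CPM (log2 fold change 2.097, edgeR adjusted p = 0.00109). MTERF3, the most abundant of the regulators on Day 2, was not called and had 265 ± 39.0 and 164 ± 96.1 CPM, and on Day 3 YY1 was the highest with 223 CPM.

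Among 14 tested assembly factors outside the rule, 1 was higher and 0 lower, or 7.143% and 0% against the 21.18% and 11.28% of all tested genes, with which the counts of the next lists are also to be read. It was CMC2, a complex IV assembly factor, with 48.8 ± 18.3 CPM on Day 2 and 279 ± 199 on Day 3 (log2 fold change 2.93 ± 0.60, SE, edgeR adjusted p = 0.00181), and Day3-E1 was below the Day 2 range. Of the tested pyruvate dehydrogenase and citric acid cycle genes, 2 of 14 were higher and 1 lower. DLD, the dehydrogenase subunit shared by several mitochondrial complexes, rose from 48.1 ± 6.03 to 189 ± 158 CPM (log2 fold change 2.396, adjusted p = 0.00446). CS, citrate synthase and the most abundant gene of the list, fell from 738 ± 88.4 to 409 ± 78.1 CPM without overlap (log2 fold change -0.60 ± 0.14, SE, edgeR adjusted p = 0.00541). In glycolysis 1 of 9 tested genes was higher, ALDOC with a log2 fold change of 2.42, and 1 lower, PKM with -0.91 (adjusted p = 0.00203 and 0.0258). LDHA, the most abundant, had 714 ± 154 and 566 ± 274 CPM and was not called, and 0 of 5 tested carriers and pores for ATP, ADP and phosphate were called in either direction by edgeR's test.

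Of the 57 tested genes for mitochondrial ribosomal proteins, whose products make the mitochondrially encoded subunits, 10 were higher and 3 lower with a median log2 fold change of -0.05, or 17.5% and 5.26% against 21.18% and 11.28% of all tested genes. Of the 74 tested genes for cytosolic ribosomal proteins, 59 were higher (79.7%) and 0 lower with a median of 1.47. Their sum was 16747 ± 1502 CPM on Day 2 and 34955 ± 15363 on Day 3, with 17835 in Day3-E1 and 61001 in Day3-E8, the same embryos that held the lowest and highest sums of the risen oxidative phosphorylation genes. Whether these lists differed from the oxidative phosphorylation genes was not tested.

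Markers of other cells that may cling to an embryo were checked in the same way. Of 13 cumulus and granulosa cell markers in the table, 3 were tested and 0 called by edgeR's test, and their sum was 593 ± 48.1 CPM on Day 2 and 414 ± 147 on Day 3. Among the Day 3 embryos it ran from 203 CPM in Day3-E8 to 590.03 in Day3-E5, against 528 to 647 on Day 2. HAS2 had the highest mean over all 14 embryos, 217 CPM, with STAR above it on Day 2 (260 against 254 CPM), while AMH, FOXL2 and PTX3 had 1 to 10 UMI each on either day. The 3 tested members, HAS2, STAR and VCAN, had lower means on Day 3. Of the 10 that were not tested, 5 had lower means on Day 3 (PTGS2, COL1A2, GREM1, FST and PTX3) and 5 higher (TNFAIP6, INHBA, AMH, CD44 and FOXL2). The widest differences in UMI among these were those of PTGS2, with 81 UMI on Day 2 and 43 on Day 3, and TNFAIP6, with 1 and 35. Of 3 sperm markers in the table, the sum stayed between 0 and 7.72 CPM in every embryo. Of the 11 oocyte and early embryo markers, 5 fell and 0 rose, or 45.5% lower against 11.28% of all tested genes, led by ZAR1 with a log2 fold change of -1.49 (edgeR adjusted p = 0.00359), and their sum was 10413 to 12513 CPM on Day 2 and 3275 in Day3-E8 to 12905 in Day3-E5 on Day 3. Their part in the changes of the oxidative phosphorylation genes was not tested.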

How the data were processed

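Per the labels and the methods of the study, the authors mapped reads to Bos tau7 and the ERCC sequences with STAR 2.5.2b, made UMI tables with the Drop-seq pipeline, and deposited whole-number UMI counts per gene and cell. Their table scaled to the median cell was not used here. Counts of cells with 2000 or more UMI were summed per embryo, and the 92 ERCC spike-ins were left out. Day 3 and Day 2 were compared with edgeR 4.0.16 (quasi-likelihood test, TMM scaling, filterByExpr, Benjamini-Hochberg adjustment over all 5274 tested genes, threshold 0.05) in R 4.3.3. A standard error (SE) of a log2 fold change is its absolute value divided by the square root of the quasi-likelihood F statistic. The steps were tested on simulated counts. DESeq2 1.42.0 and other settings served as alternatives. Shares of cells were compared by exact permutation over embryos after thinning. The 83 genes were set by symbol and the other lists by name, but the choice of genes, lists and tests was made with earlier results of these data known. Named were the 10 largest called changes in each direction (9 fell), the most abundant gene of each complex, CYCS, the isoforms, and of every other list the largest called change in each direction and the most abundant gene. Of the 83 symbols, 66 matched a current RefSeq symbol and 17 a synonym, such as ATP5A1 for ATP5F1A. A p-value of the edgeR fit sets the difference between the days against the spread of embryos within a day. The barcode set was not a term in any fit. The parents of the embryos are not given in the sources used here.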

Additional observations from a re-analysis of the deposited data

Results flagged for a closer look

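Some single embryos stood apart from the others of their day by Dixon's test at the 95% level. It was run on 80 groups of values, so chance alone flags about 1 in 20 of them, and 6 were found. NDUFB2 had 15.9 CPM in Day2-E6 against 25.1 to 30.4 in the other Day 2 embryos, and UQCRQ had 107 CPM in the same embryo against 139 to 156. COX7A2L had 725 CPM in Day3-E5 against 339 to 483 in the other Day 3 embryos, and COX7B2 had 23.9 CPM in Day3-E4 against 0 to 10.17. COX4I2 had 2.57 CPM in Day3-E8, and NDUFA4L2 had 1.52 CPM in Day2-E4, each from 1 UMI, and both genes were at 0 in the other embryos of the day.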

How the results depend on the processing

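The 21 called genes kept their direction in every setting in which they could be tested, except with ERCC UMI as library size, where ATP5F1 and NDUFB9 turned. Every setting used the same embryos or a part of them, so a kept direction is no separate support. Leaving out each embryo in turn, 15 of the 21 were called in all 14 fits, and ATP5F1, COX8A, NDUFB9, NDUFC1, NDUFS1 and NDUFS5 lost the call in 1 fit or more. The number of all genes called lower, 595, ranged from 420 to 919 over these fits, the highest without Day3-E1. Depth limits low genes: the 22 genes with 1 to 142 UMI over all embryos were tested only in settings that let them through, where NDUFAF7 was called lower without the filter and with Day3-E3 added to the first barcode set, and COX7B2 higher without the filter.

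Over all genes, 1712 calls (1117 higher, 595 lower) became 351 (327 and 24) with the first barcode set only, 542 (455 and 87) with Day3-E3 added to it, and 702 (488 and 214) with the embryo number as a replicate block. The calls without TMM were 890 higher and 981 lower, and with ERCC UMI as library size 456 and 1907. The median of the log2 fold changes of all genes, -0.04, was -0.27 without TMM and -0.77 with ERCC UMI. The number of gene UMI per ERCC UMI followed the barcode sets. For the oxidative phosphorylation genes, 21 calls (12 higher, 9 lower) became 0 (0 and 0) with the first barcode set only, 4 (2 and 2) with Day3-E3 added, 7 (3 and 4) with the replicate block and 13 with 5 lower within p3. With ERCC UMI as library size, 3 were higher and 26 lower. The calls as higher of ATP5B, ATP5E, ATP5F1, COX8A, NDUFA2, NDUFA4, NDUFB4, NDUFB9 and NDUFV1 were lost there. Without TMM, those of ATP5F1, COX8A and NDUFB9 were lost. The block does not rest on a shared source, because embryo numbers were given within a day. The deviations of same-numbered embryos correlated between -0.132 and 0.0258. With DESeq2, 12 oxidative phosphorylation genes were called higher and 11 lower, or 37.7% of those tested against 42.0% of all tested genes. With edgeR within p3 these shares were 18.8% and 24.7%. The setting that added Day3-E3 was chosen after its ratio of gene to ERCC UMI had been seen. The causes of these shifts were not tested.

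Some genes without a call passed the test in other settings: ATP5G1 with DESeq2, without TMM, with ERCC UMI and without Day3-E3 or Day3-E5, ATP5G2 with the title suffix as a term, within p2, with ERCC UMI and without Day3-E1, COX7A1 within p2 and without Day3-E1, COX7A2 within p3, and ATP5J, COX7A2L, COX4I1 and CYCS with ERCC UMI, all lower on Day 3. Other tested genes gained calls too. Those of NDUFB3 (log2 fold change 2.67 within p2 and 1.61 without Day3-E1) and NDUFB8 (0.70 within p3 and 0.65 with the title suffix as a term) were higher on Day 3. SDHC was called lower with DESeq2, without TMM, with ERCC UMI and without Day3-E8, and further genes were called lower, mainly with ERCC UMI. The sign of small log2 fold changes also turned. COX7A2L (-0.01) had 0.019 with DESeq2, 0.089 with the title suffix as a term and 0.25 within p3, and -0.11 to 0.033 with 1 embryo left out. ATP5J (0.04) had -0.21 without TMM, -0.047 without a filter on low counts, -0.071 with the replicate block, -0.12 with the first barcode set, -0.14 with Day3-E3 added, -5.79e-05 with cells of 10000 or more UMI and -0.74 with ERCC UMI, and -0.050 to 0.084 with 1 embryo left out. COX7A2 (0.32) had -0.051 without TMM, -0.15 with the title suffix as a term, -0.31 with the replicate block, -0.087 with Day3-E3 added to the first barcode set, -1.05 within p3 and -0.62 with ERCC UMI, and -0.030 to 0.48 with 1 embryo left out. COX4I1 (-0.06) had 0.0019 with the title suffix as a term and 0.49 within p2, and -0.26 to 0.033 with 1 embryo left out. UQCRH (-0.18) had 0.19 within p3, CYCS (-0.38) had 0.074 with the first barcode set, and ATP5G2 (-0.62) had 0.060 with Day3-E3 added. ATP5G3 (0.34) had -0.10 within p2 and -0.39 with ERCC UMI.

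The log2 ratios of the summed levels moved with the scale. For complex I subunits it was -0.16 in CPM, 0.14 in TMM-scaled CPM, -0.67 per ERCC UMI and -1.94 in UMI per cell. In the same order it was -0.06, 0.24, -0.58 and -1.87 for complex III, -0.17, 0.10, -0.66 and -1.95 for complex V, and -0.11, 0.19, -0.63 and -1.90 for all 83 genes. Per ERCC UMI and in UMI per cell it was -0.57 and -1.84 for complex I assembly factors (-0.09 in CPM), -1.08 and -2.36 for complex II (-0.58), -1.67 and -3.05 for its assembly factors (-1.24), and -0.15 and -1.39 for complex IV (0.45). For cytochrome c (-0.66) it was -2.38 in UMI per cell and -1.52 within p2. Complex IV had -0.079 within p3, and the complex II assembly factors -0.83 with the first barcode set. Without the most abundant gene complex II had -0.21 and complex III 0.30, and as the mean of single cells complex III had -0.29.

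The difference in the share of cells with a UMI, Day 3 minus Day 2, depended on depth. For NDUFA6 it was -46.7 points thinned to 10000 UMI and -23.4 thinned to 5000, where it was no longer called. Unthinned, NDUFB2 (36.3 thinned to 10000) had -5.87, ATP5B (5.397) had -11.2 and NDUFV1 (34.3) had -4.10. Unthinned, that of NDUFA6 was -26.4 and still called, and calls were gained at -31.8 for SDHAF3, -29.3 for NDUFC1, -43.1 for NDUFA7, -26.4 for NDUFS1, -47.4 for COX7A1, -40.9 for ATP5G1 and -39.3 for ATP5G2. CYCS (3.32) had -9.59 at 5000 UMI and -40.2 unthinned, also a gained call, COX6B2 (4.19) had -1.58 and -9.09, and COX4I1 (-8.14) had 1.42 at 5000 UMI.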
